A study of Mus musculus with 12 samples.

Results

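Gene expression in LSK cells that had entered the blood under G-CSF was compared with that in LSK cells of the marrow. LSK cells are the lineage-negative, Sca-1 positive and Kit positive fraction, which holds the stem cells and early progenitors of the blood. The comparison takes 6 of the 12 arrays of the series: 3 of peripheral blood LSK cells from mice given G-CSF over 5 days in 9 injections, and 3 of marrow LSK cells from mice given PBS. The other 6 arrays are of LSK cells from the blood of mice given AMD3100 for 1 hour, or CWHM-823 with tGro-b, for which no time was given, and they served to estimate the spread and as a second reference. All mice were male DBA2/J animals and no age was used here. Arrays with the same number, 1 to 3, lay on the same slide, so every difference was taken within slides. Whether each array stands for its own mouse or pool of mice is not given, and the spread that p-values rest on may be technical. No blood of untreated mice was measured, so the effects of G-CSF and of leaving the marrow cannot be told apart. The other treatments differed from G-CSF in duration as well as in target.

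G-CSF is the growth factor of neutrophils and the most used mobilizing agent. Its receptor, Csf3r, signals through JAK kinases and STAT3, and SOCS3 is the feedback inhibitor of that signal. Over several days G-CSF expands the myeloid cells of the marrow, lowers the chemokine CXCL12 there and weakens the CXCR4 and VLA-4 contacts that hold stem cells in place. LSK cells then appear in the blood, where they are nearly absent at rest.

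RNA was amplified and hybridised in 1 colour to Agilent mouse arrays. On the 6 arrays the 75th percentile of the signal lay between 1566 and 2637, and 72.5 to 83.4% of probes were above background. Levels below are log2 signals relative to the 75th percentile of the array, and differences are G-CSF blood minus PBS marrow on that log2 scale with a standard error (SE) from the model. The small number of arrays, 3 in each group, limits how precise a difference can be. All 8 genes of the LSK gate were above background on every one of the 6 arrays. Kit, the stem cell factor receptor, had levels of 3.71, 3.44 and 3.50 in marrow and 3.47, 3.25 and 3.38 in G-CSF blood, a difference of -0.19 ± 0.14 that did not pass the test. Ly6a, which encodes Sca-1, was at -0.90, -0.69 and -1.03 in marrow and at 0.86, 0.69 and 0.73 in G-CSF blood, 1.63 ± 0.26 higher (adjusted p = 0.00875). The groups overlapped for Kit and were clearly apart for Ly6a.

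Transcripts of mature neutrophils were high on marrow array 3. Over 9 measured markers the median level there was 0.55. It was -2.19 and -2.43 on marrow arrays 1 and 2, and -2.43, -2.57 and -3.12 on the G-CSF arrays. None of the 9 passed the test. Ngp, a granule protein of neutrophils, exceeded background on all 3 arrays of marrow and on 0 of G-CSF blood. Elane, the neutrophil elastase, read 1.81 on marrow array 3 but -1.44 and -1.16 on arrays 1 and 2 of marrow. The part of this array in the results was not tested beyond leaving it out.

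Of 23698 genes tested, 4711 passed at an adjusted p under 0.05 (limma, slide as a block, Benjamini-Hochberg), which is 19.9%. G-CSF blood was higher for 1841 of them (7.77%) and lower for 2870 (12.1%). Most changes were small: the median was 0.84 among the genes that rose and -0.89 among those that fell. A difference of more than 2-fold was reached by 622 of the genes that rose and 1073 of those that fell, and one of more than 4-fold by 145 and 133. The count depended on the design. It was 692 when only the 6 arrays were fitted, 420 without the slide as a block, and between 507 and 3699 when a single array of the comparison was left out. Both ends of that range came from leaving out marrow array 1 and G-CSF array 2. Without G-CSF array 1 it was 526, without G-CSF array 3 it was 553, without marrow array 2 it was 1714 and without marrow array 3 it was 1662. The spread was estimated over all 12 arrays, and the count depended on which arrays entered the fit.

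The direction of the calls moved with the level of the gene and with the scaling. Genes were split into 4 equal groups by mean level. In the group of lowest level the median difference was -0.55, and 14.7% fell while 2.51% rose. In the group of highest level the median was 0.06, and 6.85% fell while 14.2% rose. Over all genes the median was -0.27 with the 75th percentile as the reference, -0.10 after quantile normalization and -0.09 when each array was centred on its median. Genes higher in G-CSF blood made up 39.1% of the calls as reported, 55.0% after quantile normalization and 69.1% after centring. The 546 olfactory receptor genes tested, which have no known use in these cells, had a median difference of -0.72, and 131 of them (24.0%) fell while 0 rose at an adjusted p under 0.05. After quantile normalization 32 of the olfactory receptors fell and their median was -0.41. Only 266 of the 2870 genes that fell lay below -1.60, the value that 5% of olfactory receptors lay under. What moves weakly expressed genes down on the G-CSF arrays was not tested, and small falls are given below as values beside this background.

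**Figure D1:**
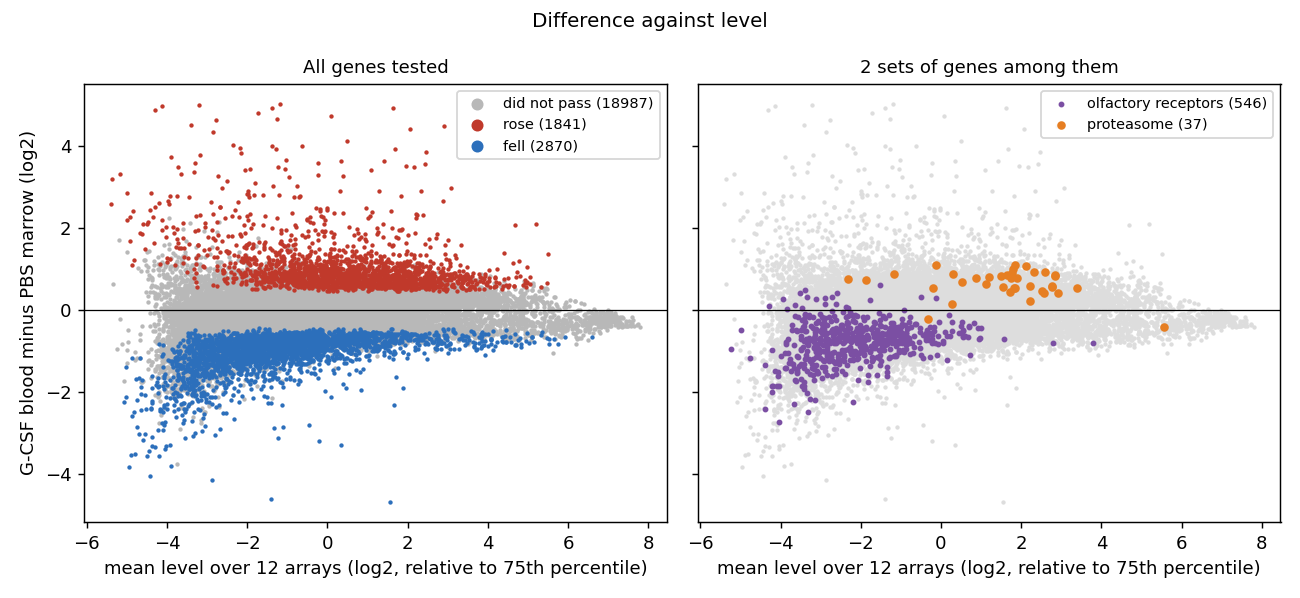
Difference between G-CSF blood and PBS marrow (log2, vertical axis) against the mean level over 12 arrays (log2 relative to the 75th percentile, horizontal axis), 1 point per gene, on the left by the outcome of the test (1841 rose, 2870 fell) and on the right with 546 olfactory receptors and 37 proteasome genes marked. The olfactory receptors lie mostly below 0 at low levels (median -0.72), and the proteasome genes mostly above it (median 0.73).

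A smaller set passed under several settings at once. It comprised 209 genes that rose and 55 that fell under all 5 scalings (75th percentile, quantile, median, normexp and the authors' own values), in the 6 arrays alone and without the block. These genes are called stable below. Leaving out an array was not part of this rule, and some stable genes lost their call in such fits. Klf1 and Hoxb3 did so in 5 fits without 1 array, Itgb1 in 3, and Mn1, Neil3 and Ly6a in 1 each. Others, such as Selp and Klf2, did so in 0.

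**Figure D2:**
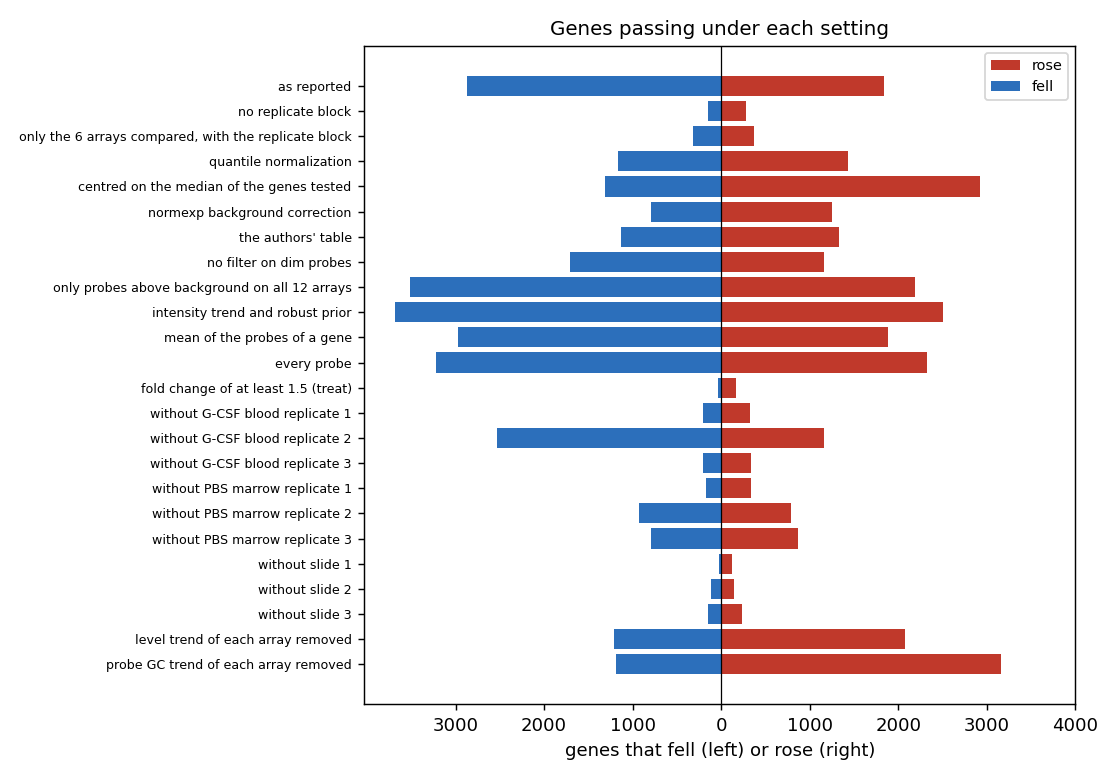
Number of genes that rose (right, red) or fell (left, blue) at an adjusted p under 0.05 under each setting of the processing. The count is 4711 as reported, 692 with only the 6 arrays, 420 without the slide as a block and 206 when a fold change of at least 1.5 is required.

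Among genes above background on all 6 arrays, Selp had the largest increase. It encodes P-selectin, the adhesion molecule of platelets and endothelium. Its probe (mm9 chr1:166079660-166079719, plus strand) read -3.60, -3.16 and -3.26 in marrow and 1.79, 1.44 and 1.52 in G-CSF blood. That is 30.4-fold higher, or 4.93 ± 0.24 (adjusted p = 5.46e-05), with the groups far apart. The other 2 blood groups read between -2.47 and -1.64, and G-CSF blood was 3.47 ± 0.21 above their mean. Klf2, a zinc finger factor of quiescence and trafficking, came next. It read -1.89, -1.39 and -1.83 in marrow and 3.21, 2.73 and 3.67 in G-CSF blood, 30.0-fold higher. Klf2 read 1.54 to 3.66 in the other blood groups, and its difference from their mean, 0.69 ± 0.30, did not pass (adjusted p = 0.0798). Trib1, a pseudokinase that directs the degradation of C/EBP alpha, rose 26.3-fold. Col18a1, the collagen from which endostatin is cut, rose 25.1-fold, from -3.34, -2.86 and -3.03 to 1.78, 1.36 and 1.57. A second probe gave 5.36 for Trib1 and 3.89 for Col18a1. The RefSeq promoter windows (GRCm38.p6, 250 bases before to 50 after the start, the first window listed for a gene) of Selp at chr1:164115014-164115313 and Klf2 at chr8:72318812-72319111, both on the plus strand, are printed because these genes lead the increases. Capitals in Selp mark its 1 CCAAT match. None of the motifs searched was found in the Klf2 window.

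Selp: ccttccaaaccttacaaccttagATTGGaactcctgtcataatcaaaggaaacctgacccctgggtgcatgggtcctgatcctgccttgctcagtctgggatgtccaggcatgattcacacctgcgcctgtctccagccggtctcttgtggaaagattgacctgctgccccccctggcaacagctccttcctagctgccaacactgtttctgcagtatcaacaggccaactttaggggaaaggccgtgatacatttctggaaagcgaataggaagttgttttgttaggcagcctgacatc
Klf2: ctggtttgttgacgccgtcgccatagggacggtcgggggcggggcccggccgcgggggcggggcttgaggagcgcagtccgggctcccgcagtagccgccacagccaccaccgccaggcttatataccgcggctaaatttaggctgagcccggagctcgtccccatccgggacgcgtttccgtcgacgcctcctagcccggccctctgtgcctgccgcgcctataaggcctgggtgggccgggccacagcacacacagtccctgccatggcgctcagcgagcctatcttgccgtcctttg

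Further large and stable increases joined genes of several kinds. Lmna, the A-type lamin that stiffens the nucleus, went from -2.67, -2.19 and -1.92 to 2.12, 1.33 and 2.15, a 17.4-fold rise. Tgfbi, a matrix protein induced by TGF-beta, rose 15.1-fold and S100a4, a calcium-binding protein of motile cells, 14.4-fold. S100a4 had levels of 0.20, 0.82 and 1.31 in marrow and 4.68, 4.53 and 4.66 in G-CSF blood. Dlk1, an imprinted non-canonical Notch ligand, rose 12.0-fold, from -1.75, -1.33 and -0.95 to 2.40, 2.20 and 2.11. Ahnak, a giant scaffold protein, rose 11.4-fold, with 3 other probes between 1.46 and 4.29. Each of these was also above the mean of the other blood groups: by 3.37 ± 0.27 for Tgfbi, 3.15 ± 0.19 for Dlk1, 2.41 ± 0.26 for S100a4, 0.71 ± 0.20 for Ahnak and 0.69 ± 0.21 for Lmna. Bhlhe40, a repressor of the clock, rose by 3.48 ± 0.37. Csf1, the growth factor of macrophages, had a larger fitted difference than Selp, 5.03, but was above background on only 2 of 3 marrow arrays, and its other probes gave 1.67 and 3.46; it was singled out after its values were seen. The alpha globin genes Hba-a1 and Hba-a2 rose by 3.63 ± 0.34 and 3.92 ± 0.38, but they are near-identical copies and their probes may not tell them apart.

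Among genes seen above background on all 3 arrays of one group and on none of the other, only a bound can be given. Here the dim group was set at the lowest signal of the array above background, or at its own signal where that was higher. Gzmb, granzyme B, was at least 17.1-fold higher in G-CSF blood. The bound was 13.5-fold for Cebpd, a C/EBP factor induced by cytokines, 9.98-fold for Cd200r4, 9.37-fold for Tppp and 8.48-fold for Csrnp1. Among the 4711 genes that passed the test, 38 were above background only in G-CSF blood by this rule and 60 only in marrow. Genes that did not pass were not counted. Among genes with a proper symbol, not a clone or accession name, the largest bounds for genes lower in G-CSF blood were at least 8.77-fold for Tas2r130, a bitter taste receptor, 6.90-fold for Ddx4, 5.08-fold for Fabp4, 3.76-fold for Rhag and 3.54-fold for Bpifb5. Of these, Rhag is a membrane protein of red cells and Fabp4 a fatty acid carrier.

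Among genes with a proper symbol above background on all 6 arrays and of the same sign on all slides, the largest decreases were smaller than the largest increases. Mn1, a transcriptional cofactor of primitive progenitors, read 0.45, 0.20 and -0.65 in marrow and -2.39, -3.51 and -2.78 in G-CSF blood, 7.43-fold lower. Igf2r, the receptor that clears IGF2, was 7.29-fold lower, at 0.30, 0.29 and -0.45 against -2.32, -3.31 and -2.83. The groups did not overlap for either gene. Both were also below the mean of the other blood groups, Mn1 by -1.68 ± 0.40 and Igf2r by -2.01 ± 0.25. Car1, a carbonic anhydrase of red cell precursors, was 7.02-fold lower, although a second Car1 probe gave -5.06. Pf4, a platelet chemokine, was 5.01-fold lower, Cd74, a chaperone of MHC class II, 4.98-fold, and Klf1, the master factor of erythroid cells, 4.79-fold. Neil3, a DNA glycosylase of dividing cells, was 4.88-fold lower, and its difference from the mean of the other blood groups, -0.12 ± 0.33, did not pass. Ebi3, a cytokine subunit, fell from 1.44, 1.04 and 1.14 to -0.75, -0.81 and -0.54, with no overlap. H3f3b, a replacement histone gene with near-identical copies in the genome, fell by 2.11, but marrow array 3 read 0.32 against 2.75 and 2.47 on the others. The promoter window of Igf2r (chr17:12769657-12769956, minus strand) is printed for the decreases, with its 2 E-box matches in capitals. No window for Mn1 was used.

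Igf2r: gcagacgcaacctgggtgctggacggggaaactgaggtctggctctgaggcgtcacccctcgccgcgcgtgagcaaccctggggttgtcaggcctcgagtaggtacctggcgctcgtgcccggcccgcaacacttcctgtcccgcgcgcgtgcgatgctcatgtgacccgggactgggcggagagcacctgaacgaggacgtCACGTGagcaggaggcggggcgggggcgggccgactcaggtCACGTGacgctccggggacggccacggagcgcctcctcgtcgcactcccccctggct

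**Figure D3:**
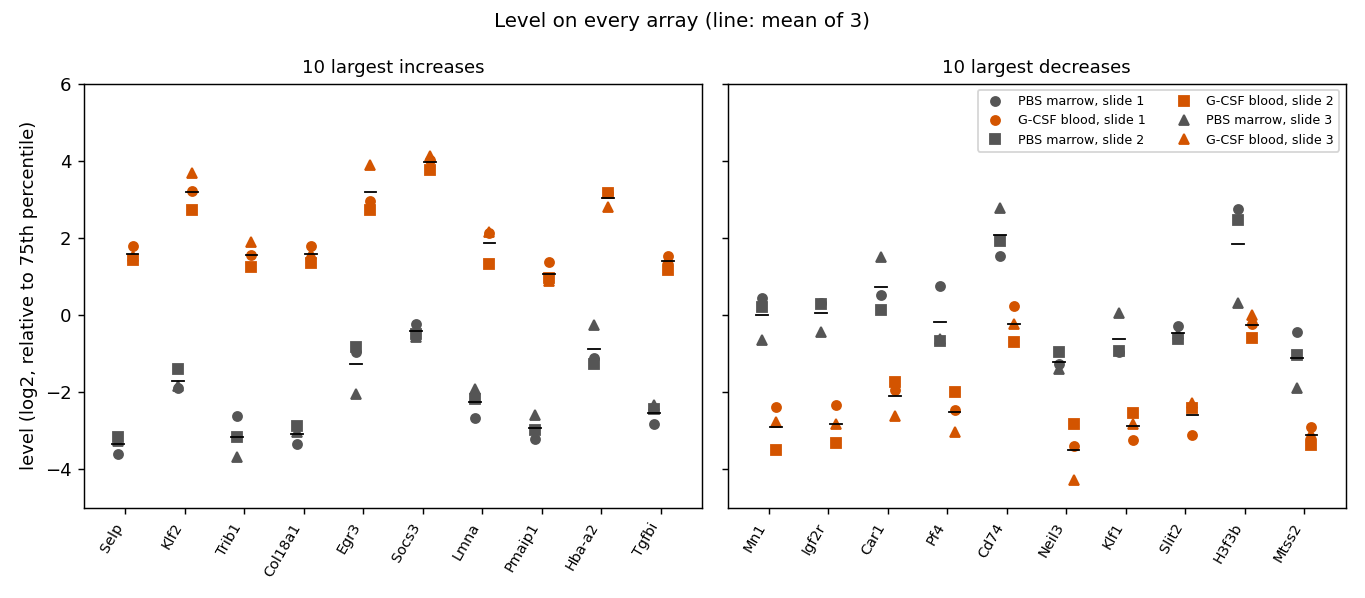
Level on every array (log2 relative to the 75th percentile, vertical axis) of the 10 largest increases (left) and the 10 largest decreases (right) among genes with a proper symbol above background on all 6 arrays and of the same sign on all slides, with grey for PBS marrow, orange for G-CSF blood, a symbol for each slide and a line at the mean of 3 arrays. The groups are apart for every gene drawn; for Selp the marrow arrays lie at -3.60 to -3.16 and the G-CSF arrays at 1.44 to 1.79, while for H3f3b marrow array 3 reads 0.32, near the G-CSF arrays.

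Signalling genes were grouped first by the early response to stimulation. Immediate early genes encode transcription factors and inhibitors that are switched on within minutes of a signal. Of 31 measured, 25 rose and 0 fell at an adjusted p under 0.05, which is 80.6% against the 7.77% of all genes and against 9.45% of genes with the same mean levels. With the 6 arrays alone 13 rose, without the block 16, and between 14 (without G-CSF array 3) and 25 when a single array was left out. Without slides 1, 2 and 3 it was 9, 14 and 13. The median difference of the list was 1.40, 1.20 and 2.19 on slides 1 to 3. Stable members were Fosb, Fosl1, Junb, Egr3, Nr4a1, Atf3, Ier3, Klf2, Klf4, Klf6 and Klf10. Fosb read 3.40, 3.10 and 3.68 in marrow and 5.42, 5.22 and 5.83 in G-CSF blood. Egr3 was 22.2-fold higher, at 2.96, 2.72 and 3.90, Atf3 12.4-fold and Nr4a1 11.7-fold. The members that did not pass included Jun at 0.15 ± 0.38, Ier5 at -0.95 and Jund at 0.63.

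The median of the 31 immediate early genes was 0.06 against the mean of the AMD3100 and CWHM-823+tGro-b arrays, with 7 above and 8 below it at an adjusted p under 0.05, where 17% of all genes were above and 32.4% below (49.4% in all). Egr3 lay 1.64 ± 0.34 below that mean and Fosb 0.45 ± 0.13 below it. Nr4a1 and Atf3 did not pass against the other blood groups, with differences of -0.71 ± 0.29 and -0.40 ± 0.34. Cd69, an activation marker that holds cells in tissue, read -4.19, -3.67 and -3.39 in marrow, where 2 of 3 arrays were above background, and -0.15, -0.06 and 0.96 in G-CSF blood, against -0.25 ± 0.19 from the other blood groups. The 2 comparisons share the G-CSF arrays. In the one with the other blood groups, the balance of higher and lower genes moved with the scaling, as given further below.

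The JAK and STAT list bears on the receptor of G-CSF itself. Of its 31 genes 8 rose and 0 fell, 6 and 0 with the 6 arrays alone. The increases were 25.8%, against 9.66% of genes of the same level. Of the targets, 3 of 4 rose, of the SOCS proteins and other inhibitors 4 of 15, and of the kinases and STATs 1 of 12. Socs3 read -0.23, -0.49 and -0.56 in marrow and 4.02, 3.77 and 4.13 in G-CSF blood, 21.1-fold higher. The AMD3100 arrays read 1.88 to 2.29 and the CWHM-823+tGro-b arrays 1.85 to 3.18, so that G-CSF blood lay 1.63 ± 0.26 above their mean (adjusted p = 0.0051). Bcl3, a nuclear partner of NF-kB that STAT3 induces, rose 9.41-fold, from -1.77, -1.86 and -2.03 to 1.42, 1.02 and 1.60. Bcl3 was at marrow level in the other blood groups, -1.98 to -1.44, and the difference from their mean was 3.02 ± 0.17. The kinase genes Pim1 and Pim2 rose by 1.95 ± 0.18 and 1.78 ± 0.21, and Stat3 by 0.95 ± 0.16. Stat3 did not pass without the block (adjusted p = 0.1). Socs3, Bcl3, Pim1 and Pim2 were stable. The probe named Csf3r lies on chromosome 19, where the gene table does not place that gene, so its value is not read as the receptor. The window of Socs3 (chr11:117969317-117969616, minus strand) is printed because this gene leads the list, with its 1 match to the STAT site TTCNNNGAA in capitals, sought on both strands. Such a match stood in 7.70% of the 13860 promoters of genes tested, in 6.46% of those that rose and in 2 of 24 of this list.

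Socs3: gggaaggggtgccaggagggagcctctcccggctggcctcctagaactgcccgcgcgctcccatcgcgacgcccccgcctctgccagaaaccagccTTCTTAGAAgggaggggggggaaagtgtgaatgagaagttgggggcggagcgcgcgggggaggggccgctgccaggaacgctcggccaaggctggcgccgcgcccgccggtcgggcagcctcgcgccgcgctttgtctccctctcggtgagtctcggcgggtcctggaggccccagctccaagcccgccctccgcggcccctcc

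NF-kB genes also rose, 11 of 29 and 0 down, with 5 in the 6 arrays alone. That is 37.9% up, against 9.10% of genes of the same level. Tnf read -2.99, -2.32 and -1.76 in marrow and 0.49, 0.20 and 1.29 in G-CSF blood. Nfkbia and Nfkbid, both inhibitors of the pathway, rose by 1.72 ± 0.19 and 1.75 ± 0.19, and Tnfaip3, the deubiquitinase A20, by 2.79 ± 0.39 with 2 of 3 marrow arrays above background. Among feedback inhibitors of MAP kinases 4 of 17 rose (23.5% against 8.83% of genes of the same level) and 1 fell. Spry1 rose by 2.25 ± 0.16 and Dusp5 by 1.99 ± 0.21, while Spry2 fell by 0.67. Genes of the TGF-beta and BMP pathways gave 7 up and 0 down of 28 (25% up against 9.61% at the same level). Id1, an inhibitor of differentiation, exceeded background on each of the 3 G-CSF arrays and on 0 of the 3 from marrow. Without any 1 of the arrays or slides their count ran from 0 to 7. Of the PI3K and mTOR genes 5 of 27 rose (18.5% against 10.1% at the same level), with Sgk1 at 2.76 ± 0.27. Notch and Wnt genes stayed near the background, with 3 up and 1 down of 24 and 2 up and 2 down of 24. Increases were 12.5 and 8.33%, against 8.86 and 9.44% at the same level, and decreases 4.17 and 8.33%, against 11.6 and 10.8%. Jag1, a Notch ligand above background only on the G-CSF arrays, was at least 3.82-fold higher. In the Bcl2 family 4 of 17 rose, 23.5% against 9.51% at the same level. Among them were Pmaip1, a proapoptotic BH3 protein, at 4.0 ± 0.24, and Mcl1, a survival factor, at 1.04 ± 0.17. The p53 targets gave 4 up and 4 down of 23 (17.4% each way, against 7.27% up and 12.9% down at the same level). Cdkn1a, the CDK inhibitor p21, read 0.21, -0.01 and 0.34 in marrow and 1.99, 1.41 and 2.30 in G-CSF blood.

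Receptors and adhesion molecules decide how LSK cells answer growth factors and where they stay. Cytokine receptor genes gave 8 up and 6 down of 33, and 6 up and 2 down in the 6 arrays alone. Increases were 24.2% against 8.74% of genes of the same level, and decreases 18.2% against 11%. Csf2rb2, a beta chain of the IL-3 receptor, and Csf2rb, the beta chain shared by the IL-3, IL-5 and GM-CSF receptors, rose by 3.25 ± 0.15 and 2.23 ± 0.15. They are close copies of each other, and second probes gave 1.12 and 2.55. Csf2rb read 1.65, 1.24 and 1.95 in marrow, 4.0, 3.42 and 4.11 in G-CSF blood and 1.06 to 2.24 in the other blood groups. Il1r1, the IL-1 receptor, rose by 3.15 ± 0.29 with 2 of 3 marrow arrays above background, and Il4ra and Il2rg by 1.34 ± 0.20 and 1.15 ± 0.15. Among the receptors that fell was one of lymphoid-primed progenitors. Flt3 read 3.45, 2.81 and 2.22 against 1.90, 1.53 and 1.46, and it was also 1.11 ± 0.18 below the other blood groups. The 2 other probes of Flt3 gave -0.98 and -0.60. Epor fell by 1.23, and Il7r was above background on 2 marrow arrays and 0 G-CSF arrays. Flt3 did not pass without the block (adjusted p = 0.08).

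Cxcr4, the receptor of CXCL12, read 4.23, 3.76 and 3.85 in marrow and 3.37, 3.81 and 3.00 in G-CSF blood, a difference of -0.56 ± 0.21 that did not pass (adjusted p = 0.0813). The arrays overlapped. Cxcr2, the receptor of Gro-beta, differed by 0.42 ± 0.27 and did not pass either. Over the chemokine and egress receptors 6 rose and 4 fell of 19, and only C3ar1 and Cd69 (up) and Ccr9 (down) were stable. Increases were 31.6% against 6.46% of genes of the same level, and decreases 21.1% against 13.6%. S1pr1, the receptor by which cells leave tissue towards the blood, rose by 0.67 ± 0.17. Of VLA-4, the integrin that CWHM-823 blocks, the alpha chain Itga4 differed by -0.08 ± 0.18 (adjusted p = 0.75), at 1.49, 1.36 and 1.72 against 1.46, 1.11 and 1.78. The beta chain Itgb1 rose by 1.40 ± 0.24, from 0.21, -0.32 and -0.23 to 1.5, 1.07 and 1.30, and a second probe gave 1.25. Itgb7, the other partner of Itga4, rose by 1.23 ± 0.16. Integrin chains and their partners gave 6 up and 1 down of 25 (24% up against 9.21% of genes of the same level).

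Selectins, their ligands and the enzymes that glycosylate them gave 8 up and 0 down of 21, with Selp and Fut8 among the stable members. The increases were 38.1%, against 10.4% of genes of the same level. Fut8 encodes a fucosyltransferase. Among other adhesion genes Cd53 rose by 2.32 ± 0.21 and Cd9 by 2.03 ± 0.19, both tetraspanins, and Slit2, a guidance ligand, fell by 2.13. The list gave 6 up and 3 down of 27 (22.2 and 11.1%, against 10.6 and 10.4% at the same level). Matrix and protease genes gave 9 up and 4 down of 26, the increases being 34.6% against 6.21% of genes of the same level. Plaur, the urokinase receptor, was above background only on the G-CSF arrays and at least 4.51-fold higher. Serpinb1a, an inhibitor of neutrophil proteases, rose by 2.41 ± 0.17, Adam9 by 1.82 ± 0.18 and Spp1, osteopontin, rose too, with 1 of 3 marrow arrays above background. Timp3 and Thbs1 fell by 1.21 and 1.17.

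**Figure D4:**
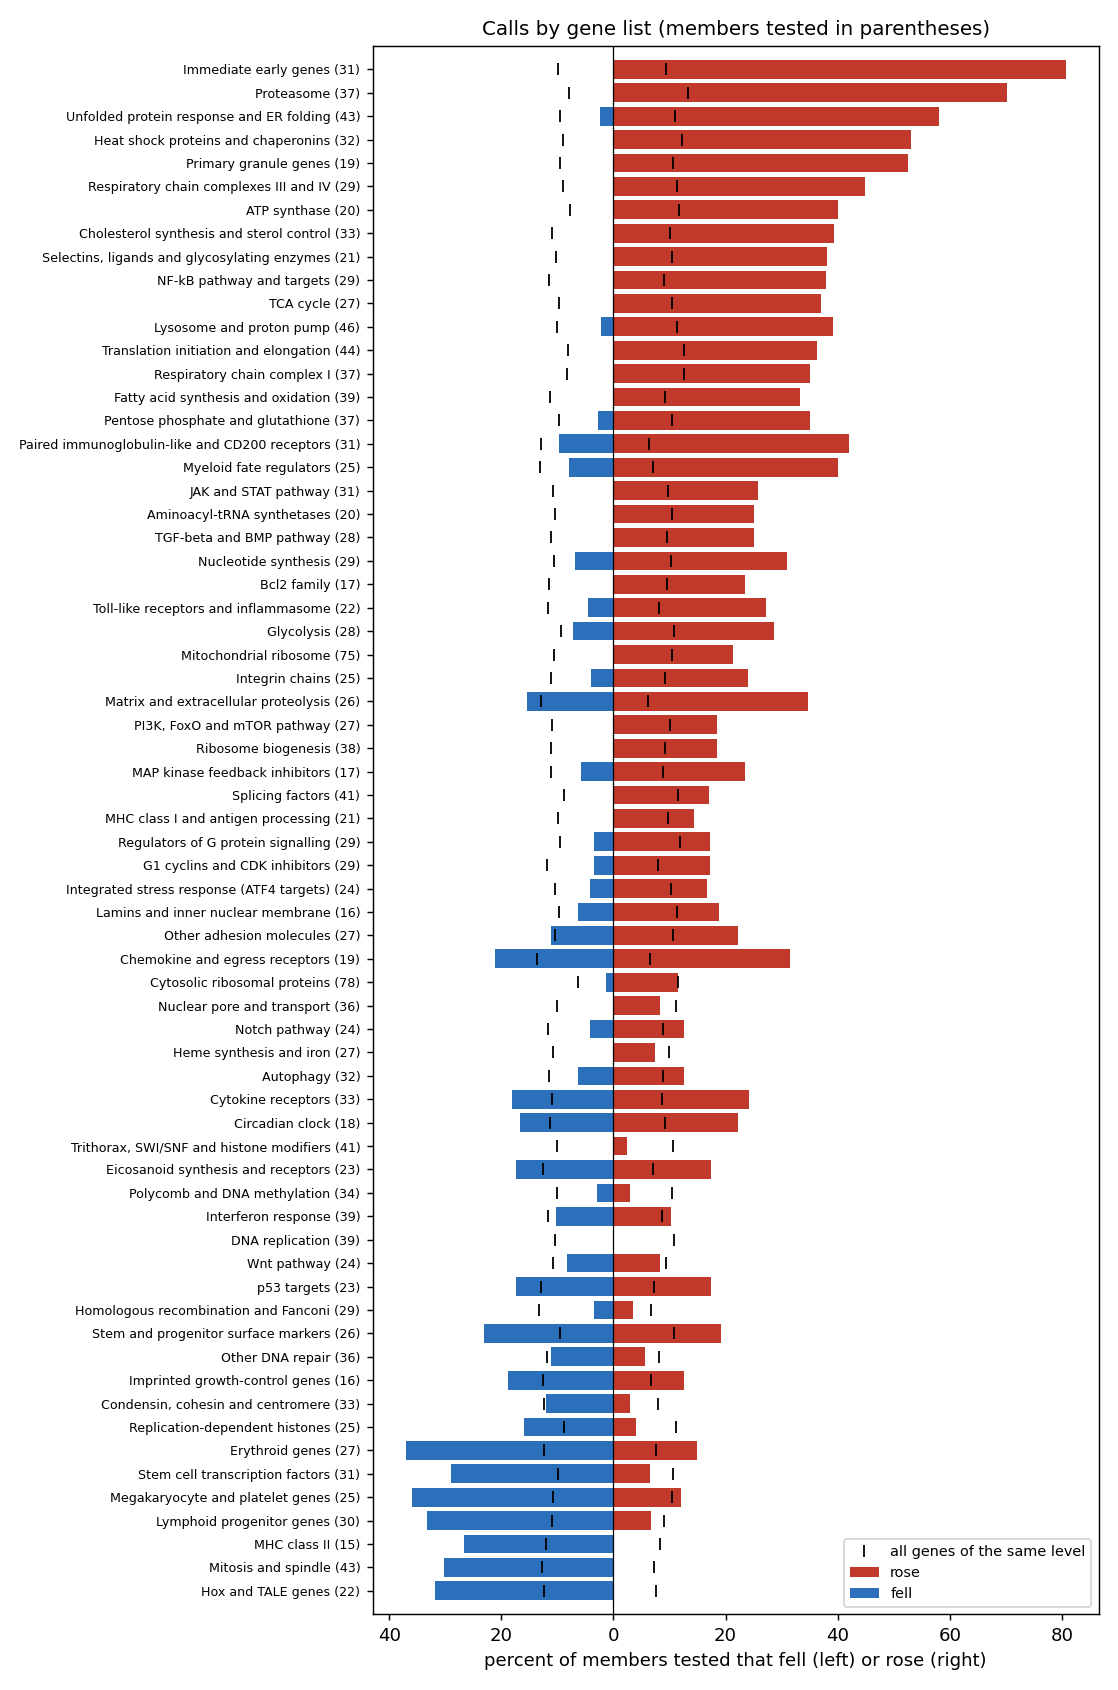
Percent of the tested members of each of 66 gene lists that rose (right, red) or fell (left, blue) at an adjusted p under 0.05, with ticks at the percent among all genes of the same mean levels. Immediate early genes (80.6% rose) and the proteasome (70.3%) are at the top, and mitosis (30.2% fell) and Hox genes (31.8% fell) at the bottom.

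Genes of the stem cell state fell more often than they rose. Of 31 transcription factors of stem cells 9 fell (29.0%, against 12.1% of all genes and 9.98% of genes of the same level) and 2 rose. In the 6 arrays alone 2 fell and 0 rose. The list median was -0.17 and turned to 0.02 when arrays were centred on the median. Hlf, a marker of stem cells, read 2.77, 2.41 and 2.04 in marrow and 1.31, 1.21 and 1.08 in G-CSF blood. It was as low in AMD3100 blood, at 1.04 to 1.15, and differed by -0.29 ± 0.14 from the mean of the other blood groups. Prdm16 fell by 1.27, Mecom by 1.03 and Mllt3 by 0.97. Runx1 and Egr1 rose, by 1.33 ± 0.21 and 1.52 ± 0.30. Hlf and Mn1 were the stable decreases. Surface markers of stem cells and progenitors were mixed, with 5 up and 6 down of 26 (19.2 and 23.1%, against 10.8 and 9.63% at the same level). Cd48 rose by 1.59 ± 0.18 and Thy1 by 1.08 ± 0.17, and Mmrn1 and Adgrg1 fell by 1.54 and 1.02. Cd48 is used to set early progenitors apart from the stem cells, which lack it.

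Hox genes and their TALE partners, which hold the identity of primitive cells, gave 7 down and 0 up of 22. The decreases were 31.8%, against 12.4% of genes of the same level. Hoxa9 read 2.25, 1.85 and 1.70 in marrow and 1.13, 0.87 and 1.17 in G-CSF blood, and a second probe gave -0.44. Hoxb3, the stable member, fell by 1.46 from 1.07, 0.26 and 0.57 to -0.87, -1.10 and -0.52. Against the other blood groups neither passed, with differences of -0.16 ± 0.14 and -0.56 ± 0.29. In the 6 arrays alone only 1 of the list fell. Meis1, their main partner, differed by -0.46 and did not pass.

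Genes of the myeloid line went the other way. Regulators of myeloid fate gave 10 up and 2 down of 25, and 8 up and 1 down in the 6 arrays alone. That is 40% up, against 6.96% of genes of the same level. Cebpb, the factor of emergency granulopoiesis, read -0.66, -0.84 and -1.56 in marrow and 0.79, 0.64 and 0.58 in G-CSF blood. Cebpa, the factor of steady granulopoiesis, rose by 1.30 ± 0.21, Klf4 by 2.19 ± 0.22, and Rara, a retinoic acid receptor, by 3.03 ± 0.34. Cebpa did not pass without the block (adjusted p = 0.061). Genes of the primary granules, formed in promyelocytes, gave 10 up and 0 down of 19 (52.6% against 10.6% of genes of the same level), with 7 in the 6 arrays alone and 7 without the block. It was 5 without G-CSF array 1 or marrow array 1, and 4, 3 and 6 without slides 1, 2 and 3. Ctsg, cathepsin G, read 1.1, 1.35 and 1.99 in marrow and 4.08, 3.43 and 3.85 in G-CSF blood. Prtn3, proteinase 3, read 0.28, -0.23 and 0.52 against 2.29, 1.89 and 1.97. Ms4a3, a marker of granulocyte and monocyte progenitors, read -3.80, -3.77 and -2.14 against 1.06, 0.61 and -0.08, and lay between -6.22 and -3.82 in the other blood groups. Mpo, myeloperoxidase, differed by 0.48 ± 0.17 and did not pass (adjusted p = 0.0695), and Elane differed by 0.74 ± 0.77 with the high marrow array 3 described above.

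Paired immunoglobulin-like and related receptors of myeloid cells gave 13 up and 3 down of 31 (41.9% up against 6.36% of genes of the same level). All 6 paired immunoglobulin-like receptor genes of the list that were tested rose, by 1.23 to 3.65. They are close copies, and their probes may share targets. Pirb, an inhibitory receptor, read -1.89, -2.01 and -2.61 in marrow, 1.47, 1.53 and 1.46 in G-CSF blood and -2.41 to -1.17 in the other blood groups. Clec4d and Clec4e, lectin receptors of myeloid cells, were stable, Clec4e at 1.93 ± 0.26. Fcgr1 and Cd300c fell by 0.75 and 1.27. Toll-like receptor and inflammasome genes gave 6 up and 1 down of 22, with Casp4 at 1.77 ± 0.18 and Myd88 at 1.95 ± 0.32. Their increases were 27.3%, against 8.16% of genes of the same level.

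Some genes of the other blood lineages fell. Erythroid genes gave 10 down and 4 up of 27, and 4 down and 3 up in the 6 arrays alone. Decreases were 37% against 12.4% of genes of the same level, and increases 14.8% against 7.53%. Klf1 read -0.95, -0.94 and 0.06 in marrow and -3.24, -2.55 and -2.82 in G-CSF blood. Car2 and Slc14a1 fell by 0.88 and 1.01. The 4 genes that rose were the globins Hba-a1, Hba-a2 and Hbb-b2 and the water channel Aqp1. Hba-a2 read -1.11, -1.28 and -0.25 in marrow, 3.18, 3.16 and 2.80 in G-CSF blood, 3.55 to 4.40 in CWHM-823+tGro-b blood and -0.14 to 1.18 in AMD3100 blood. Over the 9 measured markers of late erythroid cells and reticulocytes, 4 rose and 1 fell (44.4 and 11.1%, against 9.86 and 11.2% at the same level). Among them Alas2, an enzyme of heme synthesis, differed by 0.68 ± 0.37 and did not pass. Whether red cell RNA in the sorted blood samples has a part in the globin values was not tested. Megakaryocyte and platelet genes gave 9 down and 3 up of 25, where 10.8% of genes of the same level fell. It was 3 down and 3 up in the 6 arrays alone and 2 down and 3 up without the block. Pf4 and Mmrn1 fell, and Selp, Plek and Cd9 rose, Plek by 1.97 ± 0.18. Of 8 platelet markers, 4 fell (50% against 11.1% at the same level) and 0 rose, and in the 6 arrays alone 0 fell.

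Lymphoid progenitor genes gave 10 down and 2 up of 30 (33.3% against 11% of genes of the same level), and 2 down and 1 up in the 6 arrays alone. Dntt, the terminal transferase of early lymphoid cells, fell by 1.1, and Ccr9, a thymus homing receptor, by 1.66. Against the other blood groups 20 of the 30 were lower and 1 was higher, where 32.4% of all genes were lower and 17% higher. Genes of MHC class II and its control gave 4 down and 0 up of 15 (26.7% down against 12.0% at the same level). H2-Aa, the alpha chain, read 0.22, 0.97 and 1.38 in marrow and -3.32, -4.16 and -3.81 in G-CSF blood, and fell, with 2 of 3 G-CSF arrays above background. H2-Eb1 fell by 3.19, also with 2 of 3 G-CSF arrays above background. Cd74 read 1.53, 1.92 and 2.79 against 0.23, -0.71 and -0.24, and 1.81 to 3.18 in the other blood groups. Markers of dendritic cells fell in 3 of 9 cases (Flt3, Zbtb46 and Ccr7) and those of B cells in 3 of 8 (Fcer2a, Cr2 and Pax5), with 0 up in both. These decreases were 33.3 and 37.5%, against 10.1% of genes of the same level for each. In the 6 arrays alone 0 markers of dendritic cells and 1 of B cells fell. Whether fewer such cells or less RNA in each lies behind these values cannot be told apart in sorted bulk samples, and that holds for every list here.

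Mast cell and basophil markers were mixed. Of 11 measured, 4 rose, namely Gzmb, Cpa3, Hdc and Fcer1a, and 1 fell, Tpsab1. Increases were 36.4% against 8.20% of genes of the same level, and decreases 9.09% against 12.3%. In the 6 arrays alone 3 rose and 0 fell. The median level over the 11 was -3.36, -2.52 and -2.97 on the marrow arrays and 0.03, -0.22 and 0.26 on the G-CSF arrays. The marker that stands at the median can differ between arrays. The median of their 11 differences was 0.15, at 0.20, -0.16 and 0.41 on the slides, with 6 of the 11 above 0, and from the authors' table it was -0.14 over 8 of them. Mcpt8, a basophil protease, differed by 1.05 ± 0.65 and did not pass, and Ms4a2, Prss34 and Cma1 were not above background on all arrays of any group. The part of such cells in the increases was not tested.

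**Figure D5:**
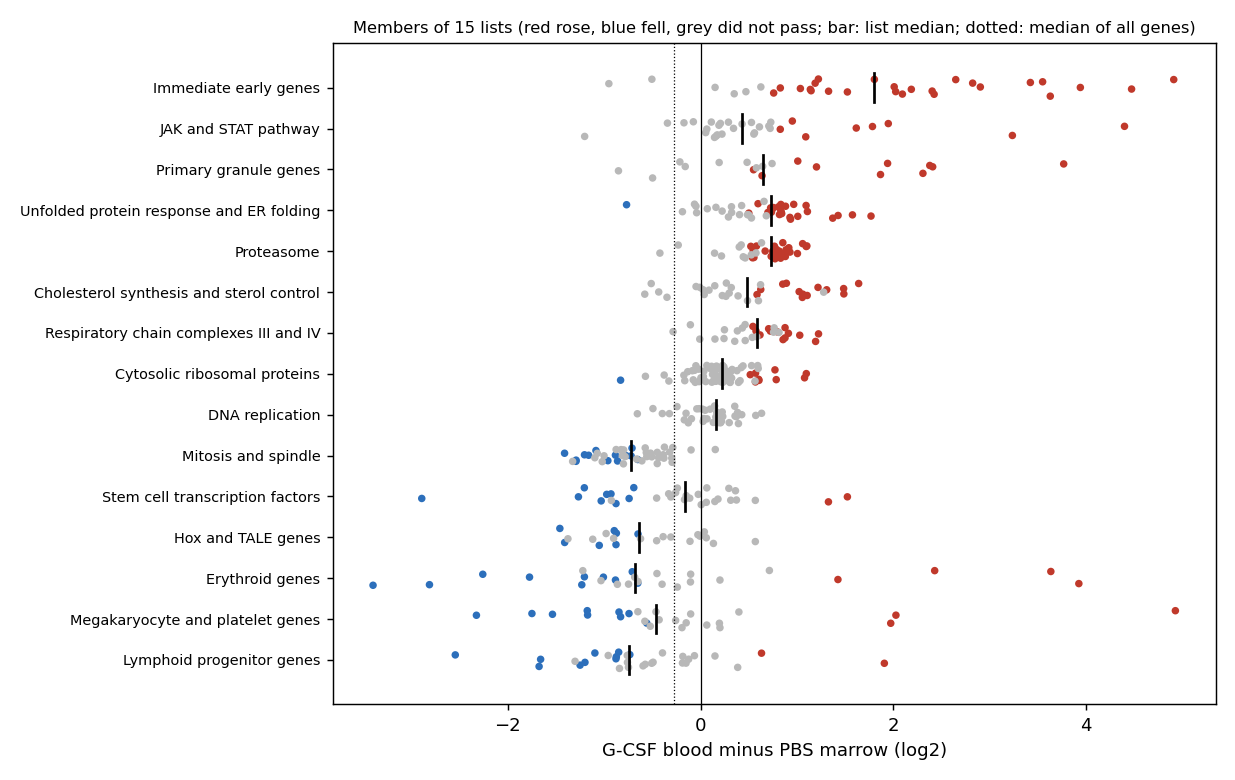
Difference between G-CSF blood and PBS marrow (log2, horizontal axis) of every tested member of 15 gene lists, with red for genes that rose, blue for those that fell and grey for those that did not pass. Bars mark list medians (1.80 for immediate early genes, 0.73 for the proteasome, -0.72 for mitosis) and the dotted line the median of all genes, -0.27.

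The cell cycle lists differed among themselves. DNA replication genes gave 0 up and 0 down of 39 at an adjusted p under 0.05 with limma, with a list median of 0.58, 0.06 and -0.21 on slides 1 to 3. Mitosis and spindle genes gave 13 down and 0 up of 43 (30.2% against 12.7% of genes of the same level). Their median was -0.35, -0.98 and -0.85 on the 3 slides, and 42 of 43 members lay below 0. In the 6 arrays alone 1 fell, without the block 2, and after quantile normalization 8. With a single array left out between 1 (without G-CSF array 1) and 8 fell, and with a slide left out 0. Nusap1, a spindle protein and the stable member, read 0.56, 1.29 and 1.17 in marrow and -0.43, -0.22 and -0.21 in G-CSF blood. Kif23, a kinesin of cytokinesis, fell by 1.41 and Ttk, a spindle checkpoint kinase, by 1.29. Plk1 and Foxm1 fell by 0.77 and 0.88. Against the other blood groups 14 of the 43 were higher and 6 lower, where 17% of all genes were higher and 32.4% lower. Nusap1 differed by 0.02 ± 0.16 there. Centromere and condensin genes gave 4 down and 1 up of 33, and replication-dependent histones 4 down and 1 up of 25. These decreases were 12.1 and 16%, against 12.4 and 8.92% at the same level. Of the G1 genes 5 rose and 1 fell of 29 (17.2% up against 8.02% at the same level). Ccnd3 and the inhibitors Cdkn1a and Cdkn2d were stable increases, at 1.27 ± 0.18, 1.71 ± 0.17 and 1.55 ± 0.19, and Ccnd1 fell by 1.40. Nucleotide synthesis gave 9 up and 2 down of 29 (10.3% of genes of the same level rose), but 0 and 0 in the 6 arrays alone and without the block, with Tyms, the thymidylate synthase, among the decreases.

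Promoters of the mitosis list share letters that the list was not chosen by. The cell cycle homology region, TTTGAA on either strand, stood in 27 of its 36 promoters (75%) and in 14.1% of all 13860, and the CCAAT box in 28 of 36 (77.8%) against 38.4%. These elements are textbook sites of the complexes that time mitotic genes. Among all genes that fell, TTTGAA stood in 17.4% of promoters and among those that rose in 10.3%, with mean GC contents of 54.6 and 61.1%. The window of Kif23 (chr9:61946750-61947049, minus strand) shows both, in capitals, once each.

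Kif23: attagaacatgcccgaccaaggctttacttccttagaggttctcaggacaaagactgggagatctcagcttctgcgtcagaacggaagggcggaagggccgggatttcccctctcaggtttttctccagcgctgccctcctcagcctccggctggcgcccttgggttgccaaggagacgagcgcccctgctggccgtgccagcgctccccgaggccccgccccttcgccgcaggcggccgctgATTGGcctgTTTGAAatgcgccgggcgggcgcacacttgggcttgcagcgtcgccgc

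Genes of protein folding and disposal rose widely and by small amounts. The unfolded protein response and folding in the endoplasmic reticulum gave 25 up and 1 down of 43 (58.1% against 11% of genes of the same level), with 4 in the 6 arrays alone and 4 without the block. With a single array left out it ran from 4 (without marrow array 1) to 20, with 5 and 6 without G-CSF arrays 1 and 3, and without slides 1, 2 and 3 it was 0, 0 and 4. Of the translocon, signal peptidase and oligosaccharyltransferase genes 12 of 15 rose, with all 15 above 0 and a median of 0.83. Of the chaperones and disulfide isomerases 10 of 17 rose, and of the stress sensors and degradation genes 3 of 11, with 1 down, Derl3. Xbp1, the transcription factor of the response, read 0.84, 0.38 and 0.55 in marrow and 2.34, 2.00 and 2.15 in G-CSF blood. P4hb, a disulfide isomerase, rose by 1.77, the most of its group, and Ostc by 1.43 ± 0.22. These 3 were the stable members. Dnajb11, a chaperone of the lumen, rose by 1.09 ± 0.15, and its window (chr16:22857595-22857894, plus strand) is printed because the CCAAT box, a part of the stress element of such genes, stood in 27 of the 36 promoters of this list (75%) against 38.4% of all. Capitals mark its 5 matches.

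Dnajb11: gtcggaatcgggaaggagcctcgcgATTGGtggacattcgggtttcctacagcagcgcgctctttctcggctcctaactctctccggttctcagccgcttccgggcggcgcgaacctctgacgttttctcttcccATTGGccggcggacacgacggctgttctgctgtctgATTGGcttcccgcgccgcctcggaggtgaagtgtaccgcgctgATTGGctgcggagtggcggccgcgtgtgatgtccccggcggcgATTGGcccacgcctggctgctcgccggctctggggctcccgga

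The proteasome, which degrades tagged proteins, gave 26 up and 0 down of 37 (70.3% against 13.2% of genes of the same level). With the 6 arrays alone or without the block 0 passed. Leaving out G-CSF array 1 or marrow array 1 left 0, G-CSF array 3 left 1, marrow array 2 left 9, marrow array 3 left 14 and G-CSF array 2 left 15, and 0 passed without slide 1, 2 or 3. The 20S core gave 12 of 14, with every member above 0 between 0.42 and 1.1, and the 19S regulatory particle 11 of 19. The list median was 0.90, 0.66 and 0.56 on the 3 slides. Psma3, a core subunit, read 2.26, 1.89 and 1.94 in marrow and 3.29, 2.68 and 2.90 in G-CSF blood, with no overlap. Heat shock proteins and chaperonins gave 17 up and 0 down of 32 (53.1% up against 12.2% at the same level), and 2 up in the 6 arrays alone. The TRiC chaperonin, which folds actin and tubulin, gave 6 of 8, with all 8 above 0. Hsph1 was the stable member, at 1.32 ± 0.19. Lysosome genes gave 18 up and 1 down of 46 (39.1% up against 11.4% at the same level), and 3 up in the 6 arrays alone. Of the subunits of the proton pump 5 of 13 rose. Lamp2, a membrane protein of the lysosome, rose by 1.21 ± 0.14 and was stable, and Gla fell by 0.92. Autophagy genes gave 4 up and 2 down of 32 (12.5 and 6.25%, against 8.76 and 11.4% at the same level).

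Translation genes followed with smaller medians. Initiation and elongation factors gave 16 up and 0 down of 44 (36.4% up against 12.5% at the same level). Of the 44, 42 lay above 0, with a median of 0.44. Eif1a was stable at 1.31 ± 0.20. In the 6 arrays alone 1 of these passed. Cytosolic ribosomal protein genes gave 9 up and 1 down of 78, with a median of 0.22 and 0 calls in the 6 arrays alone. The share that rose was about that among genes of the same level, and 1.28% fell against 6.36% there. Ribosome biogenesis gave 7 up and 0 down of 38, and aminoacyl-tRNA synthetases 5 up and 0 down of 20. Targets of ATF4 in the integrated stress response gave 4 up and 1 down of 24 (16.7% up against 10.2% at the same level). Splicing factors gave 7 up and 0 down of 41, and nuclear pore genes 3 up and 0 down of 36. The shares up were 17.1 and 8.33%, against 11.6 and 11.2% at the same level. Chromatin genes gave few calls. Polycomb and DNA methylation genes gave 1 up and 1 down of 34, and Trithorax and other histone modifiers 1 up and 0 down of 41.

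Some genes of the mitochondria rose, by small amounts. Complex I of the respiratory chain gave 13 up and 0 down of 37, and all 37 members lay above 0, with a median of 0.60. Complexes III and IV gave 13 up of 29, ATP synthase 8 up of 20, the TCA cycle 10 up of 27 and the mitochondrial ribosome 16 up of 75, with 0 down in each at an adjusted p under 0.05. The list medians were 0.58, 0.54, 0.51 and 0.45. Uqcrq, a subunit of complex III, rose by 1.22 ± 0.23, Ndufa1 of complex I by 0.85 ± 0.16 and Idh1 by 1.59 ± 0.34. Among genes of the same levels 10.4 to 12.6% rose. In the 6 arrays alone these 5 lists gave 0, 1, 0, 0 and 1 up, and none of their members was stable. Glycolysis gave 8 up and 2 down of 28 (10.8% of genes of the same level rose), 1 up and 0 down in the 6 arrays alone and 0 without the block. Slc2a3, a glucose transporter, rose by 1.07 ± 0.17 and Pkm by 0.93 ± 0.18, while Ldhb fell by 0.96. Of the pentose phosphate enzymes 5 of 7 rose, with Taldo1 at 0.97 ± 0.16, and of the glutathione and other antioxidant genes 8 of 30, with 1 down, Txnip, at -0.96. Heme synthesis and iron genes gave 2 up and 0 down of 27 (7.41% up against 9.82% at the same level).

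Cholesterol synthesis and sterol control gave 13 up and 0 down of 33, 7 up in the 6 arrays alone and 2 without the block. The increases were 39.4%, against 10.2% of genes of the same level. The enzymes of the pathway gave 11 of 20, with a median of 0.87, and the genes of uptake, sensing and efflux 2 of 13, with a median of 0.23. Hmgcs1, an early synthase of the pathway, rose by 1.31 ± 0.17 and Sqle, the squalene epoxidase, by 1.02 ± 0.15. Abca1 and Srebf1 differed by -0.58 and -0.43 and did not pass. The window of Hmgcs1 (chr13:119690101-119690400, plus strand) holds the 1 match to the sterol element TCACNCCAC found in the 24 promoters of this list, in capitals, and 1.15% of all promoters hold one. Fatty acid genes gave 13 up and 0 down of 39 (33.3% up against 9.27% at the same level), and 1 up in the 6 arrays alone. Of these genes 8 of 23 rose in oxidation and 5 of 16 in synthesis and activation. Fads2, a desaturase, rose by 1.04 ± 0.17 and Acaa2, of beta-oxidation, by 0.77 ± 0.17.

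Hmgcs1: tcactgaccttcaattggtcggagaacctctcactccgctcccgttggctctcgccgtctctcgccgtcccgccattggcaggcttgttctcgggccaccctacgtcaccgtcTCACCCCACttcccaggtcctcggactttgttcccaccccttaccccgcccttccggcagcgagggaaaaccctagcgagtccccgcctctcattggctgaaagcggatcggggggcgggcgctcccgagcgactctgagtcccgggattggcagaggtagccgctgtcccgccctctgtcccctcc

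Zfp36, an immediate early gene whose product destabilizes cytokine transcripts, rose by 1.14 ± 0.21 from -0.30, -0.46 and -0.26 to 0.47, 0.40 and 1.53. Its window (chr7:28379179-28379478, minus strand) is printed because it holds a CArG box, the site of serum response factor, in capitals. A CArG box stood in 2 of 26 promoters of immediate early genes and in 1.45% of all, and the cAMP response element TGACGTCA in 1 of 26 and in 2.69%. Among genes that rose the cAMP response element stood in 45 of 1253 promoters and the E-box CACGTG in 144, and among those that fell in 24 and 114 of 1561.

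Zfp36: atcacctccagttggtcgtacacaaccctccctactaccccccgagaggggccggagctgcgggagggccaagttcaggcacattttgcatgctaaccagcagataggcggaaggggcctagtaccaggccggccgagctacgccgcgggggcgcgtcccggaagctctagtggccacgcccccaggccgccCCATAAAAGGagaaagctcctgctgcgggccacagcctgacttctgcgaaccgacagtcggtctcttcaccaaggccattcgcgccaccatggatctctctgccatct

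Set against the mean of the other blood groups, G-CSF blood differed at 11709 of 23698 genes (49.4%), with 4032 higher and 7677 lower. Without the block the count was 2184. The lists that stood out against marrow are given here with their values in this second comparison, which shares the G-CSF arrays. Proteasome genes were higher in 30 of 37 cases with a median of 0.68, and genes of the unfolded protein response in 32 of 43 with a median of 0.60. JAK and STAT genes were higher in 18 of 31 cases and lower in 0. Cholesterol genes were higher in 18 of 33 and primary granule genes in 9 of 19. Erythroid genes were lower in 14 of 27. DNA replication genes, with 0 calls against marrow, were higher in 16 of 39 and lower in 1.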

How the data were processed

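Array intensities were deposited as scanner output of Agilent Feature Extraction 11.5.1.1, which subtracted the background within each array, per the file headers. The authors also deposited a table of intensities with nearly equal medians per array, whose method is not given in the sources used here; it served as an alternative. Control spots and outlier spots were dropped. The log2 processed signal minus the 75th percentile of the array was taken, a gene was represented by its brightest probe, and probes had to exceed background on each array of some group (23698 genes). limma 3.58.1 in R 4.3.3 fitted group and slide over all 12 arrays, with Benjamini-Hochberg adjustment at 0.05. Arrays of a slide deviated together from their group means (r from 0.26 to 0.61 over 18 pairs, median 0.44). The median was -0.24 over 36 pairs of different slides. Deviations sum to 0 within each group of 3. The negative value between slides therefore follows from the positive one within them and is not a separate observation. In data simulated for this comparison with 23698 genes, 39 of 100 genes changed by 1 on the log2 scale were recovered, and 79 of 100 changed by 2, with 3 false calls. Noise was drawn for each gene separately there, with no shift shared by the genes of an array. The 3 false calls therefore give no error rate for the calls in the real data. The genes named were, by rule, the 20 largest changes each way, and in each list up to 5 that passed each way and up to 3 that did not. Stable members beyond these, Csf1, Cebpa, Foxm1, Zfp36 and some members that did not pass were named outside the rule, after their values were seen. The lists and members were chosen with earlier results of these data known. Promoters came from RefSeq (GRCm38.p6, 13860 genes matched), and probe positions from the file headers' build, mm9. The alternatives were other scalings, filters, fits and left-out arrays.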

Additional observations from a re-analysis of the deposited data

How the results depend on the processing

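The count of 4711 genes became 420 without the slide as a replicate block, 692 with only the 6 arrays, 2594 after quantile normalization, 2049 after normexp, 2459 from the authors' table, 2871 with no filter on dim probes and 206 against a fold change of 1.5. With an array or slide left out it ran from 146 (without slide 1) to 3699 (without G-CSF array 2). Centring gave 4231, all probes above background 5707, an intensity trend 6189, the mean of probes 4847 and every probe 5544. Removing the level trend or the GC trend of each array, alternatives chosen after seeing the data, gave 3293 and 4341. The 11709 genes that differed from the other blood groups became 2184 without the block and 7340 after normexp, and ran from 3281 (without G-CSF array 3) to 11661, with 3540 without G-CSF array 1. Of 431 genes followed through the settings, 157 stayed on the same side of the threshold without the block and 172 with the 6 arrays alone. One gene, Cycs, changed sign, to -0.31 with no filter on dim probes. The causes were not tested. Low signal over background limits what can be said of dim genes.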

Other observations

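Genes of 15 Klf factors, zinc finger regulators of differentiation and quiescence, gave 8 up and 1 down, against 9.00% up among genes of the same level. Long noncoding RNAs gave 10 up and 232 down of 1213 (0.824% and 19.1%), against 5.77% and 13.5% among genes of the same level, and protein-coding genes 1533 up and 1701 down of 15993. Cytochrome P450 genes, enzymes of drug and steroid metabolism, gave 0 up and 18 down of 70 (25.7%) at an adjusted p under 0.05 with limma, against 13.7% down among genes of the same level. Keratin genes gave 0 up and 10 down of 43 (23.3%), against 13.6% down at the same level. The olfactory receptors, at 24.0% down, lay between these shares.

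The remaining lists are given with the shares among genes of the same level. Interferon response genes gave 4 up and 4 down of 39, genes of MHC class I and antigen processing 3 up and 0 down of 21, and regulators of G protein signalling 5 up and 1 down of 29. Increases were 10.3, 14.3 and 17.2%, against 8.65, 9.68 and 11.9% at the same level. Eicosanoid genes gave 4 up and 4 down of 23, circadian clock genes 4 up and 3 down of 18 and imprinted growth-control genes 2 up and 3 down of 16. Increases there were 17.4, 22.2 and 12.5%, against 7.14, 9.17 and 6.76% at the same level. Decreases were 17.4, 16.7 and 18.8%, against 12.7, 11.3 and 12.6%. Lamins and inner nuclear membrane genes gave 3 up and 1 down of 16 (18.8% up against 11.3% at the same level). Fanconi and recombination genes gave 1 up and 1 down of 29, and other DNA repair genes 2 up and 4 down of 36. Their decreases were 3.45 and 11.1%, against 13.3 and 11.9% at the same level. Markers of monocytes gave 3 up and 1 down of 12, of T cells 1 up and 2 down of 8, of NK cells 2 up and 1 down of 10 and of endothelial and stromal cells 2 up and 2 down of 11. In that order increases were 25, 12.5, 20 and 18.2%, against 7.04, 9.81, 6.48 and 8.01% at the same level. Decreases were 8.33, 25, 10 and 18.2%, against 12.6, 10.4, 13.1 and 12.5%.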
